A study of Drosophila melanogaster with 4 samples.

Results

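The steroid hormone ecdysone starts metamorphosis in Drosophila melanogaster by switching on a small set of early genes, whose loci on the giant polytene chromosomes of the larval salivary gland swell into puffs. The genes br, Eip74EF and Eip75B lie in such early puffs and code for transcription factors that act on many later genes. The br gene (Dmel_CG11491), in puff 2B5 of the X, codes for zinc-finger proteins needed for entry into metamorphosis. Eip74EF (Dmel_CG32180) codes for ETS-domain proteins. Eip75B (Dmel_CG8127) codes for nuclear receptors that bind heme and are related to the Rev-erb receptors of mammals. The clusters described here are stretches enriched for H3K9acS10P, histone H3 with acetylated lysine and phosphorylated serine at adjacent positions. Acetylation of this lysine is a known mark of active promoters, and in fly interphase chromatin this serine is phosphorylated by the kinase JIL-1.

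The members were the clusters that overlapped 1 of 3 windows on FlyBase release 5. They were X from 1470000 to 1580000 for br (110 kb), 3L from 17540000 to 17630000 for Eip74EF (90 kb) and 3L from 17930000 to 18080000 for Eip75B (150 kb). The windows were set by gene position and not by the mark, though they were chosen with earlier results of these data known. ChIP replicate 1 listed 23 member clusters of 6080 in all, ChIP replicate 2 listed 30 of 7282, and another list that the authors deposited for the pair, called the combined list, held 44 of 9877. All 4 samples of the series were nuclei of wild-type Oregon-R larvae in the third instar. They comprised 2 ChIP samples and 2 input samples, and input values were not used here. The series compared no treatments or genotypes, the labels do not give the age of the larvae within the instar, and the hormone state at harvest is therefore unknown. Chromatin was pooled over tissues, so a cluster carried by few cells and a weakly marked one cannot be told apart. Nothing in the labels says whether the replicates were separate cultures, and what separates them may be technical.

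Gene models on release 5 were not used here, and clusters were not assigned to exons, promoters or single genes. In the RefSeq table of release 6, used for names and order only, inc precedes br, Mur2B overlaps it and dor, which codes for a protein of endosomal transport, follows it. CycT, the cyclin of the elongation factor P-TEFb, precedes Eip74EF, and Vps60 follows it. CG5290 precedes Eip75B, CG32192 and CG42393 overlap it, and CG44006 follows it. Clusters near the edges of the windows may therefore belong to neighbours of the 3 genes. Those further inside may belong to the genes that overlap br or Eip75B. A cluster called after a gene below is a cluster in the window of that gene. Other genes of the ecdysone pathway were not analysed here for the same lack of positions.

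All 3 windows were covered by clusters more densely than their arms. Coverage, the percentage of a window's bases inside clusters, was 27.0% in replicate 1 and 46.7% in replicate 2 for br (36.8% ± 13.9, SD, n = 2). It was 25.6% and 21.7%, respectively, for Eip74EF (23.6% ± 2.80, SD, n = 2) and 29.0% and 21.2% for Eip75B (25.1% ± 5.53, SD, n = 2). Over their full length, the X had a coverage of 14.3% and 18.8%, and 3L of 14.4% and 15.8%. Each window thus exceeded its arm in each replicate, with a ratio between 1.34 (Eip75B, replicate 2) and 2.49 (br, replicate 2). With the combined list the windows were covered at 50.3%, 39.8% and 41.9% in the order br, Eip74EF and Eip75B, against 22.8% of the X and 21.5% of 3L. The order of the genes was not stable. In replicate 1 they lay within a few percentage points of each other with Eip75B highest, and in replicate 2 br stood above both others.

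Against windows of the same size tiled along the same arm, the 3 genes ranked high without being extreme. The br window was covered more than 176 of 201 other X windows in replicate 1 (87.6%) and 192 of them in replicate 2 (95.5%). Eip74EF exceeded 224 and 191 of 270 windows on 3L (83.0% and 70.7%), and Eip75B exceeded 150 and 117 of 161 (93.2% and 72.7%). In the combined list the corresponding shares were 93.0%, 86.3% and 91.9%. Tiled windows ranged from 0% to 47.8% coverage on the X and from 0% to 55.3% on 3L at the size of the Eip74EF window in replicate 1. Each gene therefore had windows on its own arm that were covered more densely, 9 of them for br in replicate 2. Windows on 1 arm are not replicates of a condition and there were 2 ChIP samples of 1 condition, so these places are descriptions and no test was made.

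**Figure D1:**
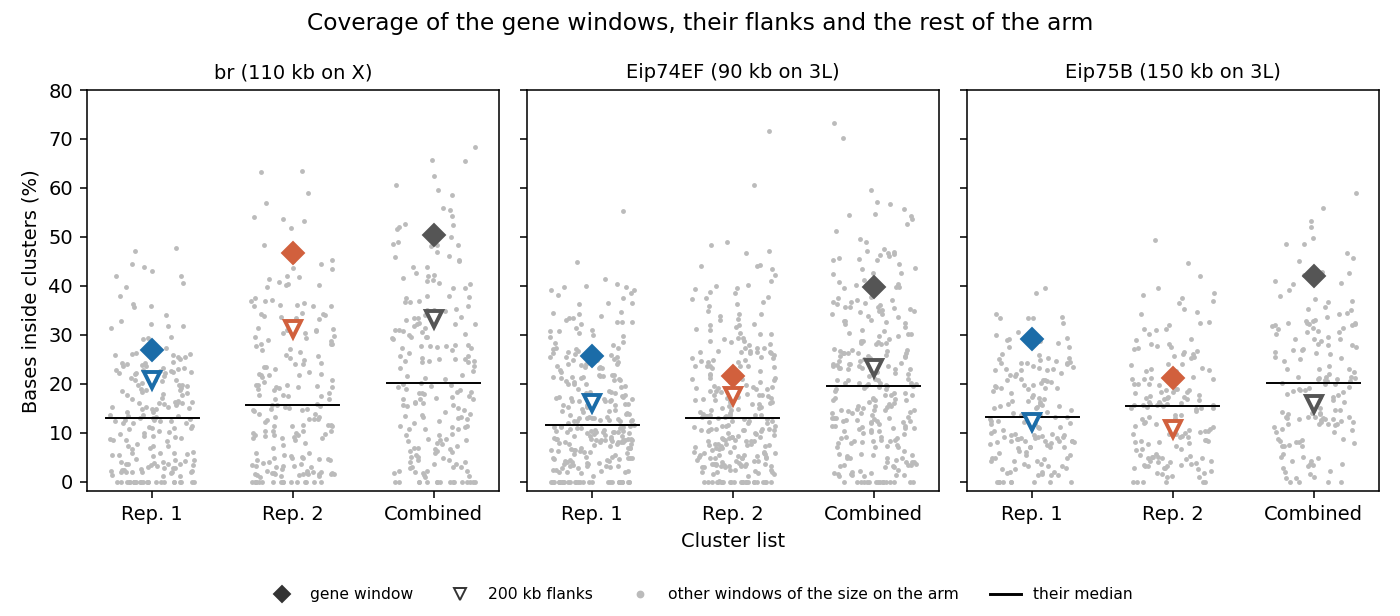
Percentage of bases inside clusters (vertical axis) in each gene window (diamonds), in both of its 200 kb flanks (open triangles) and in all other windows of the same size on the same arm (grey points, black line at their median), for each list. The diamonds lie above the pooled flanks and the arm median in every list, and replicate 2 stands above replicate 1 for br but below it for Eip74EF and Eip75B.

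The surroundings differed between the genes. Within 200 kb on each side, with both sides pooled, br was flanked by coverage of 20.7% in replicate 1 and 31.1% in replicate 2, so the window was 1.30 and 1.50 times as densely covered as its flanks (1.40 ± 0.139, SD, n = 2). The Eip74EF window was covered at 1.59 and 1.24 times the flank value (1.42 ± 0.247, SD, n = 2), and Eip75B at 2.39 and 1.97 times (2.18 ± 0.296, SD, n = 2). Eip75B had the sparsest flanks, at 12.2% and 10.8%, below the whole arm in both replicates. The br flanks, in contrast, were themselves above the X value in both.

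These ratios depended on how far the flanks reached. After the br window, toward higher coordinates, the first 100 kb were covered at 6.83% and 10.6%, and the next 100 kb at 34.5% and 43.2%. The latter hold a combined cluster of 25.2 kb from 1751004 to 1776242. With flanks of 100 kb the ratio for br was 2.13 in place of 1.40. For Eip75B it was 1.42 in place of 2.18, since the 100 kb before its window were covered at 25.6% and 24.5% and the 100 kb before that at 4.26% and 6.34%. That sparse stretch also ends the right flank of Eip74EF, so the flanks of both 3L genes share it. Eip74EF lay between unequal sides, with 24.8% and 24.3% before the window and 7.37% and 10.6% after it. In replicate 2 the window itself, at 21.7%, was covered less than the side before it.

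**Figure D2:**
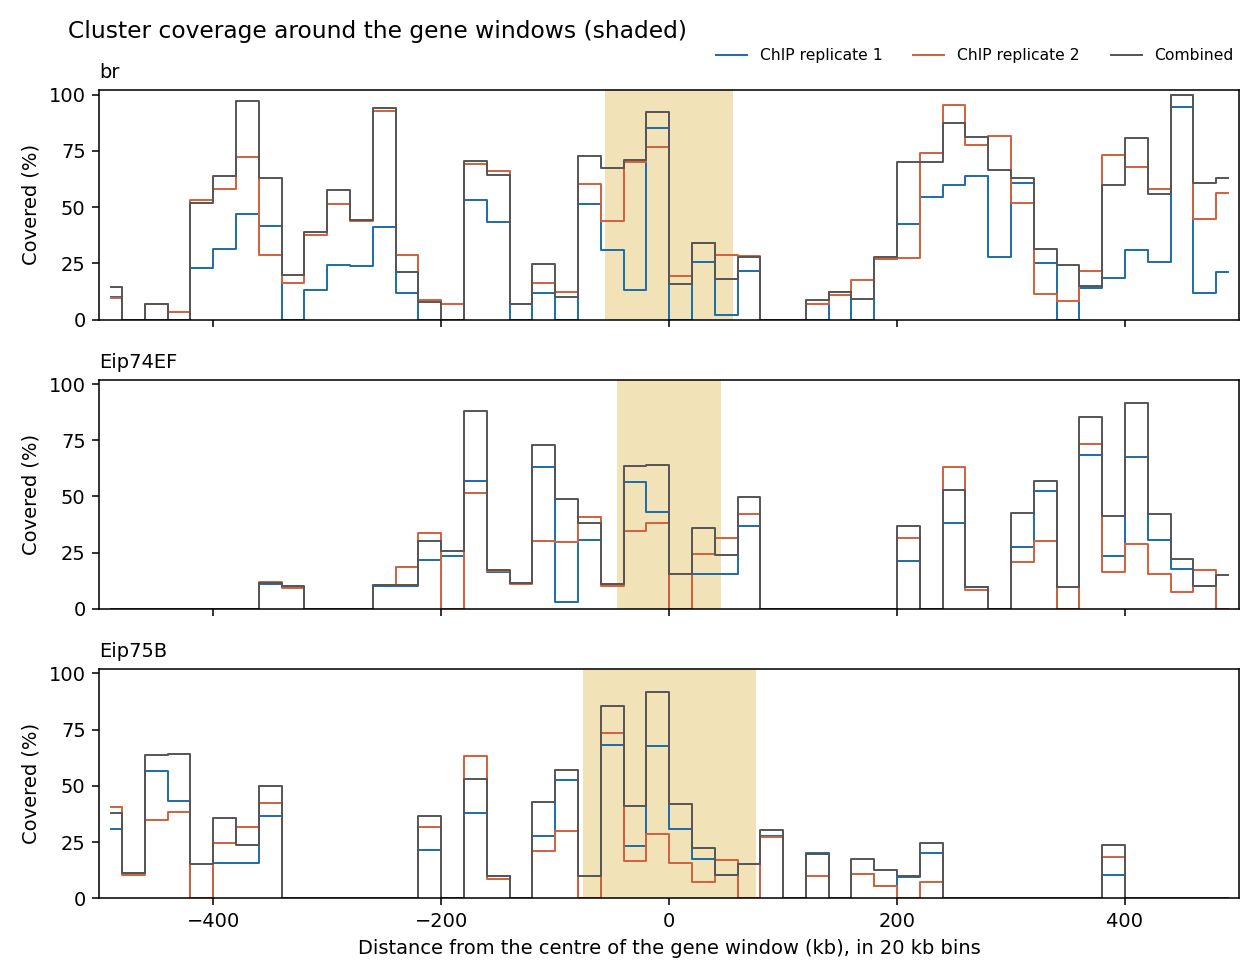
Percentage of bases inside clusters in 20 kb bins (vertical axis) by distance from the centre of each gene window, up to 500 kb on each side, with the window shaded. Around br, densely covered bins recur on both sides of the window, whereas a run of bins at 0% in all lists lies between Eip74EF and Eip75B.

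In the br window the mark was concentrated in 3 places that both replicates listed. The first was a cluster across the start of the window, from 1468323 to 1474542 in replicate 1 (6.22 kb, score 1.33) and from 1468258 to 1474791 in replicate 2 (6.53 kb, score 1.12). Because it crosses the edge, part of it lies outside the window. The score is the authors' own value for each cluster, on a scale they do not name, and is used here to rank clusters within 1 list. A score percentile is the share of the clusters of a list that score as high or lower, and for this cluster it was 87.5% and 77.2%.

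The second place was the widest cluster of the window in every list. In replicate 1 it ran from 1502403 to 1518972 (16.6 kb, score 1.29), followed after a short gap by a cluster of 3.08 kb that ended at 1522415. Replicate 2 listed it from 1500230 to 1520383 (20.2 kb, score 1.21), and the combined list from 1499726 to 1522334 (22.6 kb, score 1.15). By width it ranked 7th of 6080, 6th of 7282 and 4th of 9877 clusters. Its score was less unusual, at the 85.6%, 81.6% and 86.4% points of the 3 lists. Of the other X windows of this size, 4 of 201 held a cluster at least as wide in replicate 1 and 5 of 201 in replicate 2. This 1 cluster supplied 55.9% of the covered bases of the window in replicate 1 and 39.2% in replicate 2.

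The third place lay toward the other end of the window. Replicate 2 listed it as 1 cluster from 1558189 to 1566064 (7.88 kb, score 1.41), and replicate 1 as 2 clusters, from 1558226 to 1560416 (2.19 kb, score 0.924) and from 1562093 to 1565374 (3.28 kb, score 1.55). The last of these had the highest score of all br clusters, at the 94.4% point of its list. In replicate 1, 58 of 201 other X windows of this size held a cluster scoring at least as high. For the best br score of replicate 2, 1.41, it was 85 of 201. In the combined list this place was a cluster from 1558180 to 1566320 (8.14 kb, score 1.24). Between the second and the third place, replicate 1 listed nothing over 35.8 kb, and the bases from 1540001 to 1550000 held no cluster in any list.

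The replicates differed most over the rest of the br window. All 5 replicate 1 clusters met a replicate 2 cluster, meaning an overlap of at least 1 bp, but 9 of the 12 replicate 2 clusters met none in replicate 1. Over the whole X, 906 of 1024 replicate 1 clusters met replicate 2 (88.5%), and 863 of 1237 replicate 2 clusters met replicate 1 (69.8%). The 9 unmet br clusters of replicate 2 were 1.41 to 3.39 kb wide and scored 0.575 to 0.861. Of the 9, 5 lay between the first and the second place, where replicate 1 listed none, and the 10 kb bins from 1480001 to 1500000 were covered at 63.1% and 50.95% in replicate 2. The combined list did not hold 4 of the 9, those from 1484663, 1536823, 1569697 and 1575195. The matching share over the whole list was not computed. Whether replicate 1 lacked the mark there or fell under the threshold cannot be said, since the depth of the libraries is unknown.

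**Figure D3:**
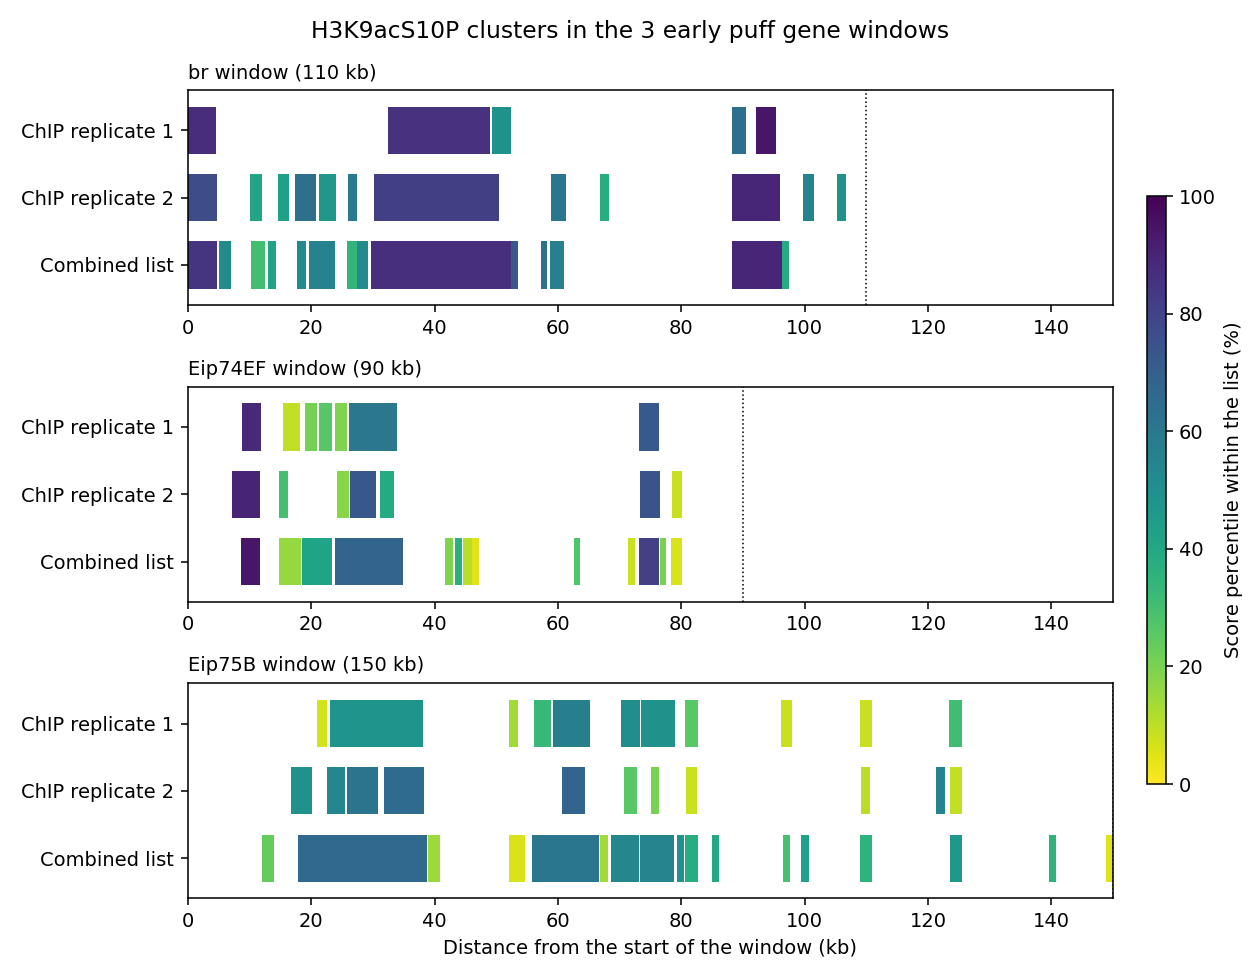
Clusters of each list (rows) along the 3 windows, by distance from the window's start in kb, with colour giving the score percentile within the list, clusters cut at the window edges and dotted lines at the window ends. Darker, higher-ranked clusters recur at 3 places in br and at 2 places in Eip74EF, while Eip75B holds wide clusters of middle rank in its first part.

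Eip74EF carried clusters in the first part and near the end of its window, with an empty interior in both replicates. The highest score of the window belonged to a cluster at the start, from 17548750 to 17551775 in replicate 1 (3.03 kb, score 1.36) and from 17547151 to 17551751 in replicate 2 (4.60 kb, score 1.44). Its score percentiles were 88.7% and 90.1%, and 94.3% for the combined cluster from 17548550 to 17551770. Of 270 other 3L windows of this size, 80 in replicate 1 and 74 in replicate 2 held a cluster scoring at least as high. The cluster at the start stood apart from the next one by a few kb. Whether it belongs to Eip74EF or to a neighbour such as CycT cannot be told from the lists.

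The next stretch was a run of weaker clusters. Replicate 1 listed 5 of them from 17555457 to 17573898, the widest of 7.83 kb with a score of 0.886 and the other 4 between 0.426 and 0.535. Replicate 2 listed 4 clusters over the same stretch, from 17554780 to 17573496, with its highest score, 1.02, in the one from 17566288 to 17570457 (4.17 kb). The combined list held 3 there, 1 of them 11.1 kb wide from 17563848 to 17574918 (score 0.714). In replicate 1 clusters filled 91.6% of the 10 kb bin from 17560001, and in replicate 2 56.4%. Both replicates thus placed the fullest part of the gene window in the same bin. The replicate 1 clusters from 17558937 to 17563360 met none in replicate 2, though the combined list met them.

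Toward the end of the window, a cluster was listed at nearly identical positions by all lists. It ran from 17613223 to 17616329 in replicate 1 (3.11 kb, score 1.05), from 17613240 to 17616469 in replicate 2 (3.23 kb, score 1.05) and from 17613200 to 17616464 in the combined list (3.27 kb, score 1.00). Its start differed by 17 bases between the replicates and its end by 140 bases. Between the run and this cluster, 39.3 kb in replicate 1 and 39.7 kb in replicate 2 held no cluster. The combined list put 6 short clusters in that interval, each 1.01 to 1.42 kb wide and scoring 0.245 to 0.382, that met neither replicate. A replicate 2 cluster from 17618458 to 17620111, with the lowest score of its window (0.395), met none in replicate 1.

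Eip75B, the largest window, held 11 clusters in each replicate and 17 in the combined list, and its highest scores were the lowest of the 3 genes. Its leading feature was a wide stretch in the first part of the window. In replicate 1 this was a cluster of 15.1 kb from 17952984 to 17968063, the 12th widest of the list, with a score of 0.726 at the 48.3% point. In replicate 2 the same stretch was listed as 3 clusters of 2.95, 4.97 and 6.59 kb from 17952548 to 17968319, with scores of 0.716, 0.825 and 0.885. The combined cluster from 17947892 to 17968730 was 20.8 kb wide, the 6th widest of that list, and scored 0.672. Both replicates covered over 70% of each 10 kb bin from 17950001 to 17970000, at 86.5% and 72.7% in the first and 80.6% and 73.7% in the second.

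A second covered stretch of Eip75B followed after a gap. Replicate 1 listed clusters of 2.78 and 6.06 kb from 17986095 to 17995264, of 3.12 and 5.56 kb from 18000181 to 18008999, and of 2.14 kb from 18010646. The first of these, of 2.78 kb, met no cluster of replicate 2. For the others the matching replicate 2 clusters were narrower: 3.66 kb from 17990656, 2.11 kb from 18000721, 1.35 kb from 18005014 and 1.76 kb from 18010709. The 10 kb bin from 18000001 was accordingly covered at 86.8% in replicate 1 and 34.6% in replicate 2. The cluster from 17990656 had the highest score of the window in replicate 2 (0.935), and the one over it in replicate 1, of 6.06 kb, had the highest there (0.841).

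The rest of the Eip75B window held isolated clusters, most of them of low rank. Those that start at 18039051 and 18053454 in replicate 1 were listed by both replicates, at score percentiles of 8.22% and 30.8% in replicate 1 and 10.2% and 9.31% in replicate 2. A replicate 1 cluster from 18026245 met none in replicate 2. The replicate 2 cluster from 18051222, at a score percentile of 55.6%, met none in replicate 1. In the whole Eip75B window, 7 of 11 replicate 1 clusters met replicate 2 (63.6%), beside 81.4% on 3L. Of the 11 replicate 2 clusters, 9 met replicate 1 (81.8%), beside 73.5% on 3L. The first 10 kb of the window were empty in all lists, and its last 24.5 kb were empty in both replicates.

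The wide clusters of these windows were not always high-scoring ones. Clusters of at least 10 kb made up 0.888% of replicate 1, 1.26% of replicate 2 and 1.79% of the combined list. Among the members there were 2 of 23, 1 of 30 and 4 of 44 such clusters, which were 1 of br in each list, 1 of Eip75B in replicate 1, and 1 of Eip74EF and 2 of Eip75B in the combined list. Within the 54 clusters of this width in replicate 1, the br cluster scored higher than 40, and the Eip75B cluster higher than 2. In the combined list, which held 177, the 20.8 kb Eip75B cluster scored higher than 36 and the 22.6 kb br cluster higher than 127. In replicate 2 the br cluster scored higher than 37 of 92.

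**Figure D4:**
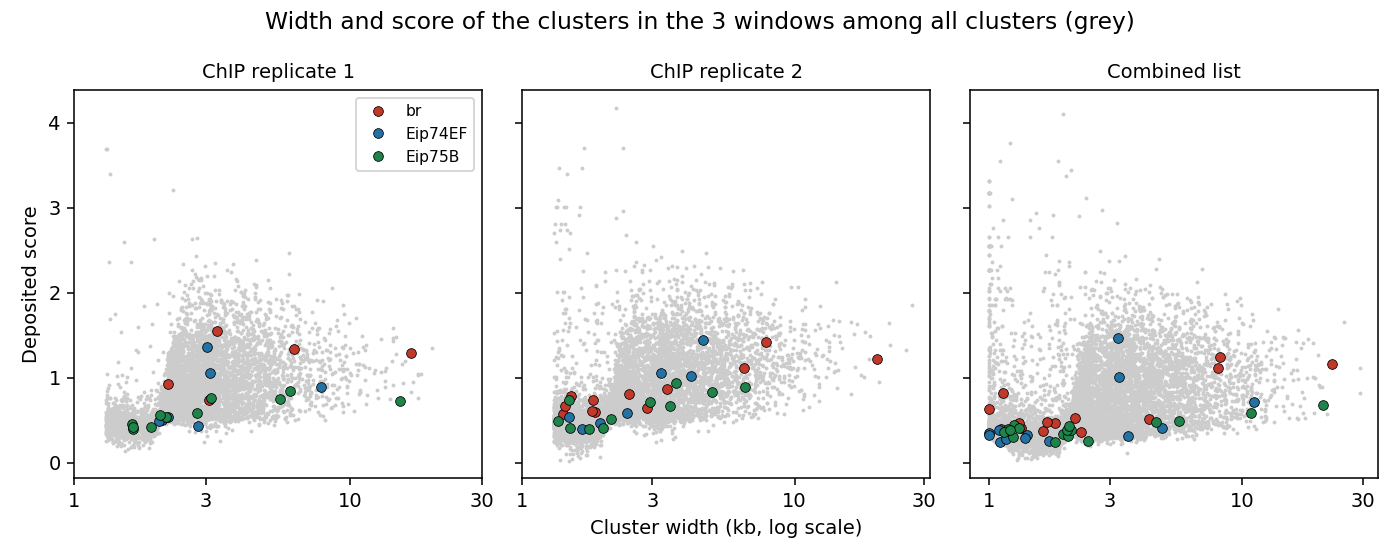
Deposited score against cluster width in kb (log scale) for the clusters of the 3 windows (coloured points) among all clusters of each list (grey). The br clusters of over 10 kb lie near the middle or above of the scores at their width, and the Eip75B ones of 15.1 kb (replicate 1) and of 10.8 and 20.8 kb (combined) toward the lower edge.

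The scores of the members also differed between the genes. A top-quarter score, one among the highest 25% of the whole list, was reached by 3 of 5 br clusters in replicate 1, 3 of 12 in replicate 2 and 3 of 14 in the combined list. Of the Eip74EF clusters, 1 of 7, 1 of 7 and 2 of 13 reached it, and of the Eip75B clusters 0 of 11, 0 of 11 and 0 of 17. The medians of the score percentile were 85.6% and 57.2% for br, 26.5% and 39.0% for Eip74EF, and 30.8% and 49.8% for Eip75B in the replicates. In replicate 1, 133 of 161 other 3L windows of the Eip75B size held a cluster scoring at least as high as the best Eip75B cluster, and in replicate 2 it was 123 of 161. The coverage of Eip75B was thus high for its arm while its best score was below that of most windows of its size. The 3 genes share no arm-wide scale, since br lies on the X and the others on 3L. The median score of all X clusters was 0.881 and 0.735 in the replicates, against 0.670 and 0.624 on 3L.

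Coverage was also computed from the higher-scoring 50% of each list. The br window was then covered at 31.2% ± 9.91 (SD, n = 2), Eip74EF at 14.4% ± 1.54 (SD, n = 2) and Eip75B at 9.61% ± 4.94 (SD, n = 2), in place of 36.8%, 23.6% and 25.1%. Relative to the tiled windows, br still exceeded 92.0% ± 2.11 of the X and Eip74EF 74.8% ± 8.90 of 3L (SD, n = 2). Eip75B exceeded 59.0% ± 17.6 in place of 82.9% ± 14.5 (SD, n = 2), so the replicates lay far apart. The 15.1 kb Eip75B cluster of replicate 1, at the 48.3% point of its list, fell just below this cut.

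In all 3 windows, the bases that both replicates listed made up little over 50% of those that either listed. They were 27.6 of 53.4 kb for br (51.8%), 15.2 of 27.4 kb for Eip74EF (55.4%) and 26.1 of 49.3 kb for Eip75B (53.0%). The same share was 58.4% on the whole X and 61.5% on the whole of 3L. Shared bases fell into 5 stretches in br, 6 in Eip74EF and 9 in Eip75B. The longest of them were 16.6 kb, 4.17 kb and 6.34 kb. Among the higher-scoring 50% of clusters the shared share was 63.3% for br and 65.4% for Eip74EF, but 14.5% for Eip75B. There, the 15.1 kb cluster of replicate 1 fell just below the median score of its list and was left out, whereas replicate 2 clusters over the same bases were kept.

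The shares of members met by another list are given beside those of the whole lists or arms where these were computed, without a test. Of the 23 member clusters of replicate 1, 17 met replicate 2, beside 85.9% of the whole list, and of the 30 of replicate 2, 18 met replicate 1, beside 71.4%. Of the 44 combined members, 14 met both replicates, beside 48.8% of the whole list, and 21 met neither. Over the arms, 398 of 1621 combined clusters on the X and 488 of 1894 on 3L met neither. The combined list met all 23 member clusters of replicate 1 and left 5 of the 30 of replicate 2 unmet, 4 of them in br and 1 in Eip75B. For these last counts the shares of the whole lists were not computed, so whether they are usual for the lists cannot be said. Bases of the combined list that were in neither replicate list amounted to 18.6% of its coverage in br, 27.8% in Eip74EF and 27.7% in Eip75B, against 15.9% on the X and 19.3% on 3L. The sources used here do not say how the authors combined the replicates.

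The replicates departed from each other in opposite directions at br and at the 3L genes. Replicate 2 minus replicate 1 was 19.7 percentage points of coverage for br, and in 5 of 201 other X windows the difference was larger. The whole X differed by 4.44 points in the same direction. For Eip74EF the difference was -3.96 points and for Eip75B -7.82 points, whereas the whole of 3L differed by 1.40 points the other way. Of the tiled 3L windows, 24 of 270 had a lower difference than Eip74EF and 1 of 161 a lower one than Eip75B. For br in particular, the replicate 2 coverage was 1.73 times that of replicate 1, and the cluster count was 12 against 5. The combined list lay above both replicates in coverage, at 50.3%, and in count, at 14.

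Cluster counts also depend on how a stretch is cut. Joining clusters of a list less than 1 kb apart, a choice made after the lists were read, left the br window with 4 domains in replicate 1 and 10 in replicate 2, beside 6 from the combined list. The second br place became 20.0 kb in replicate 1 and stayed 20.2 kb in replicate 2. The Eip74EF run became a domain of 18.4 kb from 17555457 to 17573898 in replicate 1, the 12th widest of 5032 joined domains. In replicate 2 the run joined only from 17564128 to 17573496, 9.37 kb, the 385th widest of 5755. In the combined list it became 20.1 kb, the 77th widest of 7186. The leading Eip75B stretch became 17.2 kb in replicate 1 and 15.8 kb in replicate 2, so the 3 pieces of replicate 2 spanned nearly the same bases as the undivided cluster of replicate 1. Eip75B counted 8 domains in each replicate.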

How the data were processed

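ChIP-seq for H3K9acS10P was made from 2 ChIP and 2 input samples of larval nuclei of the third instar. All sample titles carry the words new abcam lot, and dependence of the clusters on the antibody lot was not tested. Per the submitters' processing notes, Bowtie 0.12.7 was used. The authors deposited 3 lists of enriched regions with a score per region, on FlyBase release 5 per the file headers. The sources used here give no caller, threshold, scale of the score or treatment of the input, and depth is unknown. Rows typed as depleted (1 in replicate 2, 1 in the combined list) were left out.

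Coverage, flanks of 200 kb, overlaps of at least 1 bp, ranks within a list and all complete, non-overlapping windows of the same size from the start of the arm (the gene window left out) were computed with Python 3.11.15 (scipy 1.17.1, pandas 2.3.3, numpy 2.4.6) and plotted by matplotlib 3.10.9. The functions were tested on simulated data. Values are means and SD over the 2 replicate lists, with the combined list beside them, and no test was made. Every cluster of the 3 windows was a candidate to be named, and the windows and measures were chosen with earlier results of these data known. Alternatives were score, list, overlap, window width, flank, tiling, arm end, joining of clusters and leaving out a replicate.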

Additional observations from a re-analysis of the deposited data

How the results depend on the processing

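Of 51 alternative values that kept both replicates or used the combined list, 35 stayed within 1 SD of the replicates (for shared bases, within a 95% Wilson interval) and 16 did not. With n = 2 that SD reflects only the replicates' difference, so values stay more easily where the replicates differ more. For br, 50.3% against 36.8% stayed (SD 13.9), while for Eip74EF 20.3% against 23.6% did not (SD 2.80). Neighbouring bases are not replicates, so the Wilson interval served only as a cut-off. It was a wide one: shared bases of 63.3% against 51.8% (br) and of 65.4% against 55.4% (Eip74EF) stayed within it. The tally is therefore no measure of stability. No paired analysis was possible because the input samples that carry the same replicate numbers have no list used here. With the higher-scoring 50% of clusters, coverage was 14.4% for Eip74EF and 9.61% for Eip75B, and the flank ratio of Eip74EF was 1.75. Eip75B then exceeded 59.0% ± 17.6 (SD, n = 2) of tiled windows, and its shared bases were 14.5%. With the combined list, coverage was 39.8% (Eip74EF) and 41.9% (Eip75B), flank ratios were 1.71 and 2.64, and Eip74EF exceeded 86.3% of windows. With clusters met by the other replicate, Eip74EF coverage was 20.3% and the br flank ratio 1.25. Widening each window by 20 kb on each side gave 26.6% for Eip74EF and a flank ratio of 2.53 for Eip75B. Flanks of 100 kb gave ratios of 2.13 (br) and 1.42 (Eip75B). Apart from those that the values given above show, the causes were not tested.

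With 1 replicate left out, coverage was 27.0% to 46.7% for br, 21.7% to 25.6% for Eip74EF and 21.2% to 29.0% for Eip75B. With n = 2 such a value is the other replicate and always lies within 1 SD of the mean, so it says nothing about stability. The lists hold positions past a threshold, so an empty stretch is not evidence of absence.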
